A study of Mus musculus with 4 samples.

Results

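Interferon-stimulated genes were followed through the cells of the mouse distal jejunum after ischemia/reperfusion (I/R) injury. The set was a list of 44 gene symbols. Of the 44, 42 matched 1 of the 32286 features of the count matrices by symbol. Mx1 and Mx2 are not analysed here. The 42 measured members were divided by the proteins they encode. The Gbp-type held 12 genes, namely Gbp2 to Gbp7, which encode guanylate-binding proteins, Iigp1, Igtp, Irgm1, Irgm2 and Ifi47, which encode immunity-related GTPases, and the transcription factor gene Irf1. The chemokine genes Cxcl9 and Cxcl10 stood apart, and the other 28 members formed the Ifit-type.

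Single-cell RNA sequencing (scRNA-seq) was performed on 1 library from each of 4 mice, all collected 18.5 h after small intestinal I/R surgery. The 2 Control mice carried floxed alleles of both transcription factor genes (Foxc1fl/fl;Foxc2fl/fl) without Cre. The 2 EC-Foxc-DKO mice carried the same alleles and Cdh5-CreERT2, a tamoxifen-inducible Cre recombinase under an endothelial promoter that is active in blood and lymphatic endothelial cells alike. Per the methods, adult males received tamoxifen by oral gavage before surgery. No uninjured or sham-operated mouse is analysed here, so the levels describe the tissue after injury only.

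Type I interferons signal through the receptor chains Ifnar1 and Ifnar2, and type II interferon, the product of Ifng, through Ifngr1 and Ifngr2. Janus kinases then phosphorylate STAT proteins. A complex of STAT proteins and IRF9 binds the interferon-stimulated response element (ISRE), the control sequence typical of Ifit-type genes, whereas STAT dimers bind the gamma-activated sequence (GAS) found at many genes that respond to type II interferon, Irf1 and guanylate-binding proteins among them. In the gut, the products of these genes restrict viruses and intracellular bacteria in epithelial, endothelial and immune cells. The separation of the lists is a convention, because type I interferon also raises guanylate-binding protein genes and type II interferon also raises several Ifit-type genes.

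The promoters of 5 members are shown because they hold these control sequences in different combinations. Sequences are from RefSeq on GRCm38.p6 and run 5′ to 3′ along the gene from 250 bases before to 50 after the annotated start. They lie at chr4:156200769-156201068 on the minus strand for Isg15, and on the plus strand at chr19:34640639-34640938 for Ifit1, chr3:142530086-142530385 for Gbp7, chr11:58199306-58199605 for Igtp and chr11:53769764-53770063 for Irf1. Capitals mark every match to the ISRE core GAAANNGAAA, read on either strand so that TTTCNNTTTC also counts, and to the GAS TTCNNNGAA, which reads the same on both strands. Isg15 encodes a ubiquitin-like modifier and Ifit1 an RNA-binding antiviral protein, and each is shown as an Ifit-type gene with several ISRE cores and no GAS. Gbp7 and Igtp hold both motifs, and Irf1 holds a GAS and no ISRE core.
Isg15: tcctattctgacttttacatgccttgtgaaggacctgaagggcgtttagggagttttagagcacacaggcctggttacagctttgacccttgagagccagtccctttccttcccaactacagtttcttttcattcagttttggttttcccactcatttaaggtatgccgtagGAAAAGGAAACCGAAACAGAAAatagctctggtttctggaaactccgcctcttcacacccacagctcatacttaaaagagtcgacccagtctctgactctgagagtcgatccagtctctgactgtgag
Ifit1: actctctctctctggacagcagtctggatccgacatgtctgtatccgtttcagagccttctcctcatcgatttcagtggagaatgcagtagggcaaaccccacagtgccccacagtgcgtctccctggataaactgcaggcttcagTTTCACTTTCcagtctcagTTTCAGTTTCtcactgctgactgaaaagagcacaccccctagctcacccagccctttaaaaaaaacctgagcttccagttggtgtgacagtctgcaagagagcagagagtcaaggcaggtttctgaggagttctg
Gbp7: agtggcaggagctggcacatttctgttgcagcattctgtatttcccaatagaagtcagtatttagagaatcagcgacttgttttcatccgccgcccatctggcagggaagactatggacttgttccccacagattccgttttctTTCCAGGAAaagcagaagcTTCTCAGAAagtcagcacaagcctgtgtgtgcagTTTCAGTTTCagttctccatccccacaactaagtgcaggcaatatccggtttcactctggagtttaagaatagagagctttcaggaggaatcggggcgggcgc
Igtp: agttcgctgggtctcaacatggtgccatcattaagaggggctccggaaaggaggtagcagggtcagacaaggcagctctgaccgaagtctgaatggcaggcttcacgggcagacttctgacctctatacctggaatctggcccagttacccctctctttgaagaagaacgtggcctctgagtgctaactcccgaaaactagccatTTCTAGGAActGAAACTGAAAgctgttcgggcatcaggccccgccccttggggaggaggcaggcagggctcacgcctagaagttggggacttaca
Irf1: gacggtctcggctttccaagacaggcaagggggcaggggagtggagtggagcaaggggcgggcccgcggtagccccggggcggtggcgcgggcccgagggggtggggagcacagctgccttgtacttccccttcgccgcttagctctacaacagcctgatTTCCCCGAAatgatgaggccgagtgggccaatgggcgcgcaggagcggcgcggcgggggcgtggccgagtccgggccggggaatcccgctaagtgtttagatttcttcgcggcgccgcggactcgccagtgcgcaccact

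The 3 ISRE cores of Isg15 overlap and begin 78, 72 and 66 bases before the start. Those of Ifit1 begin at 104 and 85 bases before it. In Gbp7 the GAS matches begin 106 and 87 bases before the start and the ISRE core at 53, and in Igtp the GAS begins at 45 and the ISRE core at 34. The single GAS of Irf1 begins 90 bases before the start. RefSeq promoters were matched for 33 of the 44 members, giving 40 windows because several genes have more than 1 start. No entry was matched for Dhx58, Gbp4, Gbp6, Iigp1, Mx1, Mx2, Oas2, Parp14, Rtp4, Usp18 and Zbp1. An ISRE core was present in 20 of the 40 member windows (50%) and in 1131 of all 32851 promoter windows (3.44%). A GAS was present in 11 member windows (27.5%) and in 2726 of all windows (8.30%). By list, 12 of 27 Ifit-type windows held an ISRE core and 6 a GAS, against 7 and 5 of 11 Gbp-type windows. A match is a string of letters and was not tested for binding.

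The 4 libraries held 3623 to 7347 barcodes and 15557181 to 72046346 unique molecular identifiers (UMIs, 1 per captured transcript molecule). The median share of mitochondrial UMIs, taken over the 18407 genes in the authors' processed data, was 14.98% to 54.0%, highest in Control 2. The study's limit of 10% left 5615 of 22679 barcodes, of which 1446 and 348 came from Control 1 and 2 and 2742 and 1079 from EC-Foxc-DKO 1 and 2. Barcode sequences shared between libraries numbered 51, and in 2 of these both copies were kept. Clusters were named from marker genes, with the members left out of the clustering, and 22 cell types were obtained, and 242 cells (4.31%) stayed unnamed. These rebuilt names stand for "like" types and need not match the study's own. Genotypes were tested in the 8 types with at least 10 cells in every mouse, namely blood endothelial cells (BECs; 31, 29, 87 and 24 cells in Control 1, Control 2, EC-Foxc-DKO 1 and EC-Foxc-DKO 2, the order used throughout), bottom enterocytes, CD8+ T cells, crypt cells, enteric glia, follicular B cells, macrophages and plasma cells. Lymphatic endothelial cells (LECs) numbered 5, 10, 3 and 0, and neutrophils 30, 0, 20 and 6, so those types are given by level only. Among the targeted genes, Foxc1 had 1, 5, 1 and 0 UMIs in BECs and Foxc2 had 0 in every mouse, counts too low to show a loss in cells labelled EC-Foxc-DKO. Cre had 0, 0, 3 and 2 UMIs in BECs. Levels are CPM, the UMIs of a gene scaled to a fixed total for each cell type of a mouse. Libraries were made from transcript 3′ ends with 1 UMI per molecule, so CPM does not grow with transcript length. Errors are SD over mice unless given as SE. Near-identical copies such as Ifit3 and Ifit3b, Oas1a, Ifitm genes and Gbp genes may share reads, which was not measured here, and their split is uncertain.

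Among the 22 named cell types, endothelial cells had the highest mean Gbp-type levels. The 242 unnamed cells belonged to no type and are not in this order. The summed level of the 12 Gbp-type genes was 1064 ± 139 CPM in LECs (n = 3 mice, 18 cells in all) and 949 ± 182 CPM in BECs (n = 4). In BECs the sum was 854, 1181, 998 and 765 CPM, and every mouse lay above every mouse of the next type in order, enteric glia at 493 ± 220 CPM. CD8+ T cells followed at 467 ± 67.8 CPM, within the range of the glia. Neutrophils, CD4+ T cells, stromal cells and macrophages came next at 442, 435, 360 and 300 CPM, and the ranges of neighbours in that order overlapped. The stromal sums were 204, 684, 552 and 0 CPM, from 2, 32, 47 and 1 cells, so the place of stromal cells in the order is uncertain. Crypt cells had 47.1 CPM and erythroid cells had no Gbp-type UMI. Without Irf1 the means were 1004 CPM in LECs, 819 CPM in BECs and 422 CPM in glia. The ranges of BECs and glia then overlapped, since BECs had 680 CPM and glia 705 CPM in EC-Foxc-DKO 2.

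The Ifit-type sum had another order, which rested on 3 genes. Neutrophils were highest at 9480 ± 3532 CPM (n = 3), followed by BECs at 4959 ± 910 CPM, with 3885, 5042, 4811 and 6100 CPM. Plasmacytoid dendritic cells, glia, stromal cells, LECs, macrophages and myocytes/pericytes lay between 4212 and 3035 CPM, and ranges of neighbours overlapped. Ifitm1 and Ifitm3, which encode membrane proteins that hinder viral entry, and Bst2, which encodes tetherin, made up most of these sums. Together they gave 7755 CPM in neutrophils, 3983 in BECs and 2289 in macrophages, but 293 in plasma cells and 10.9 in top enterocytes. Without these genes the Ifit-type sum was highest in top enterocytes at 1740 CPM and neutrophils at 1725 CPM, followed by Sprr-high epithelial cells, a cluster rich in Sprr and S100a6 transcripts, at 1458 CPM. BECs then had 977 ± 82.8 CPM, with 907, 918, 1087 and 994 CPM, close to glia at 1024 CPM and middle enterocytes at 933 CPM. Crypt cells were lowest at 131 ± 28.5 CPM. This reduced sum was chosen after the levels were seen.

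**Figure D1:**
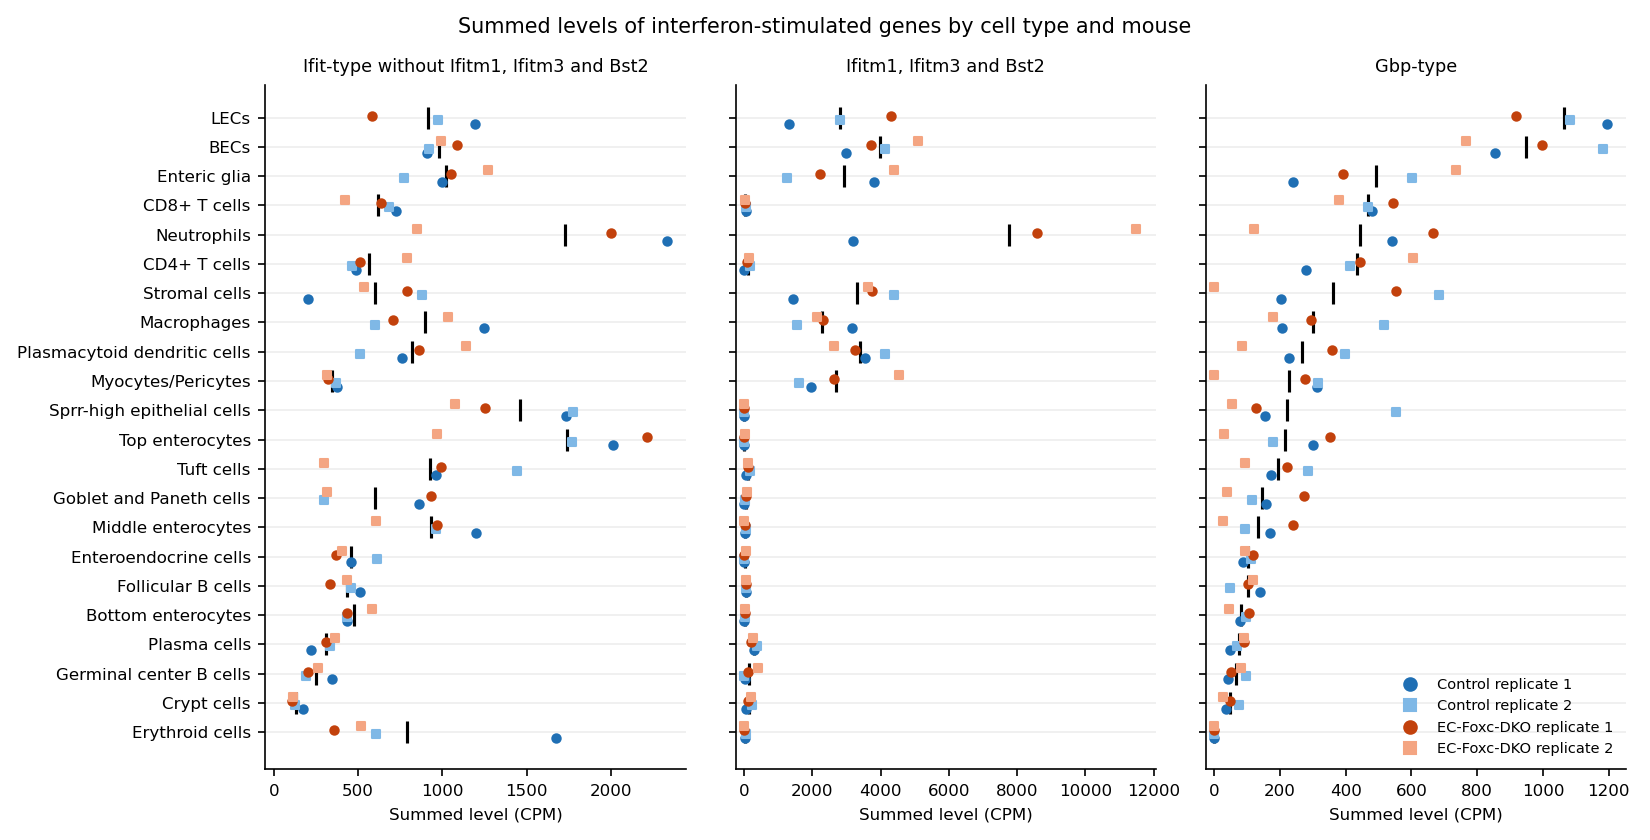
Summed CPM (x axes) in 22 cell types (rows) for the reduced Ifit-type list, for Ifitm1, Ifitm3 and Bst2 alone, and for the Gbp-type genes. The reduced list is the Ifit-type genes without Ifitm1, Ifitm3 and Bst2. Each mouse has 1 symbol, and a black bar marks the mean. BECs and LECs lead the Gbp-type sum at 949 and 1064 CPM, and top enterocytes lead the reduced Ifit-type sum at 1740 CPM.

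The balance of the lists depended on Ifitm1, Ifitm3 and Bst2, which were left out of the reduced list after levels were seen. With all Ifit-type genes, there were 4.27 to 7.98 Ifit-type UMIs per Gbp-type UMI in the BECs of the 4 mice and 2.12 to 5.33 in LECs of 3 mice, ranges that overlapped with bottom enterocytes at 4.38 to 14.2. The UMIs of the reduced Ifit-type list per Gbp-type UMI were 0.777 to 1.30 in BECs and 1.11 to 1.52 in CD8+ T cells. In 3 mice each they were 0.636 to 1.00 in LECs, 1.00 to 1.43 in stromal cells and 1.17 to 1.19 in myocytes/pericytes. EC-Foxc-DKO 2 had no LECs, and its stromal cells and myocytes/pericytes had 0 Gbp-type UMIs, so no ratio could be formed there. The 1.00 in stromal cells rested on 1 Gbp-type UMI in Control 1. In bottom enterocytes this ratio was 4.17 to 13.3, and in top enterocytes 6.25 to 32. The 32 rested on 1 Gbp-type UMI in EC-Foxc-DKO 2. On the reduced list the ranges of BECs and LECs did not overlap with those of bottom and top enterocytes. Over the 22 types Spearman's rho between the Ifit-type and Gbp-type sums was 0.771, and 0.569 with the reduced list, given as a description since types share libraries and free RNA.

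To compare single genes, each of the 8 tested types was set against the mean of the other 7 in a fit over all sums of the 4 mice (edgeR quasi-likelihood test, mouse as covariate, Benjamini-Hochberg adjustment over 8703 genes). Of the 42 members, 31 had enough counts. Ifit3, Ifit3b, Ifi44, Oasl1, Oas1a, Oas2, Rsad2, Usp18, Gbp6, Cxcl9 and Dhx58 did not pass the filter. The filter asked for enough counts in only as many sums as a single type holds. A member could thus enter through the type where it was high. The counts of higher and lower members and their medians below carry that selection, and the same filter applied to all genes.

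In BECs, 25 of the 31 members were higher and 1 was lower, against 25.9% higher and 17.8% lower of all genes. The median log2 difference of the members was 2.24 against -0.01 for all genes. The higher members were 10 of 11 Gbp-type genes, 14 of 19 Ifit-type genes and Cxcl10. Ifitm3 was the most abundant at 3521 ± 711 CPM, with 2648, 3749, 3343 and 4342 CPM, and its log2 difference was 5.21 ± 0.27 (SE; adjusted p = 4.2e-18). Bst2 had 366 ± 75.6 CPM (log2 difference 1.96 ± 0.19, SE) and Trim30a, a tripartite motif gene, 135 ± 28.0 CPM (2.59 ± 0.26, SE). Macrophages had means of 1866, 255 and 134 CPM of these genes, and their ranges overlapped with those of BECs for all 3.

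Several Gbp-type genes had high levels in endothelium. Iigp1, an immunity-related GTPase that attacks parasite vacuoles, had 134, 392, 230 and 136 CPM in BECs and a mean of 247 CPM in LECs, and the next type, stromal cells, had 29.3 CPM and did not overlap with BECs. In bottom enterocytes Iigp1 had 2 UMIs in all and in follicular B and plasma cells none, so no fold is given. Gbp4 was the most even member between mice, with 141, 147, 139 and 136 CPM in BECs, above CD8+ T cells at 86.8 ± 9.83 CPM and with no overlap. Gbp2 had 108, 107, 69.7 and 76.5 CPM in BECs, against 24.1, 70.2, 23.9 and 92.0 CPM in glia, which overlapped with BECs, and means of 27.2 CPM in CD8+ T cells, 11.2 CPM in macrophages and 0 UMIs in crypt cells. Its mean in stromal cells, 93.0 CPM, was above the 90.2 CPM of BECs and came from Control 2 and EC-Foxc-DKO 1, with 32 and 47 cells. Control 1 and EC-Foxc-DKO 2 had 0 UMIs in 2 and 1 stromal cells, where 0 UMIs still allowed up to 612 and 403 CPM. Gbp2 was thus not particular to endothelium. Gbp7 had 278 CPM in LECs, above every other type, and 125 ± 35.3 CPM in BECs (log2 difference 3.13 ± 0.25, SE; adjusted p = 3.3e-13). Irf1 had 87.4, 210, 139 and 85.0 CPM (log2 difference 1.05 ± 0.25, SE; adjusted p = 0.000937). The Gbp-type gene that did not pass the test was Igtp, at 19.7 CPM in BECs and 46.7 CPM in CD8+ T cells.

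Of the most used Ifit-type marker genes, Isg15 and Irf7 did not pass the test in BECs. Isg15 had 67.2, 58.0, 67.3 and 85.0 CPM there (log2 difference 0.38 ± 0.44, SE; adjusted p = 0.529), and Irf7, a transcription factor gene of the interferon amplification loop, 26.9, 49.0, 51.1 and 17.0 CPM (0.49 ± 0.44, SE; adjusted p = 0.400). Ifit1 was higher (2.70 ± 0.54, SE; adjusted p = 8.8e-05) at 6.72, 8.92, 48.8 and 59.5 CPM. Ifit3 had 10 UMIs in all BECs and was not tested. Zbp1, a sensor of Z-form nucleic acid named here after its values were seen, was the member that was lower, at 0, 0, 4.64 and 17.0 CPM. The Cxcl10 call rested on 13 UMIs in EC-Foxc-DKO 1 alone, and the other 3 mice had 0. Markers of other cells were also present in BECs. The summed leukocyte markers were 430, 8.92, 439 and 348 CPM and the epithelial markers 1398, 223, 843 and 391 CPM, beside endothelial markers of 7961 to 9308 CPM, and hemoglobin transcripts reached 3596 CPM in EC-Foxc-DKO 1. Their part in the levels was not tested.

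**Figure D2:**
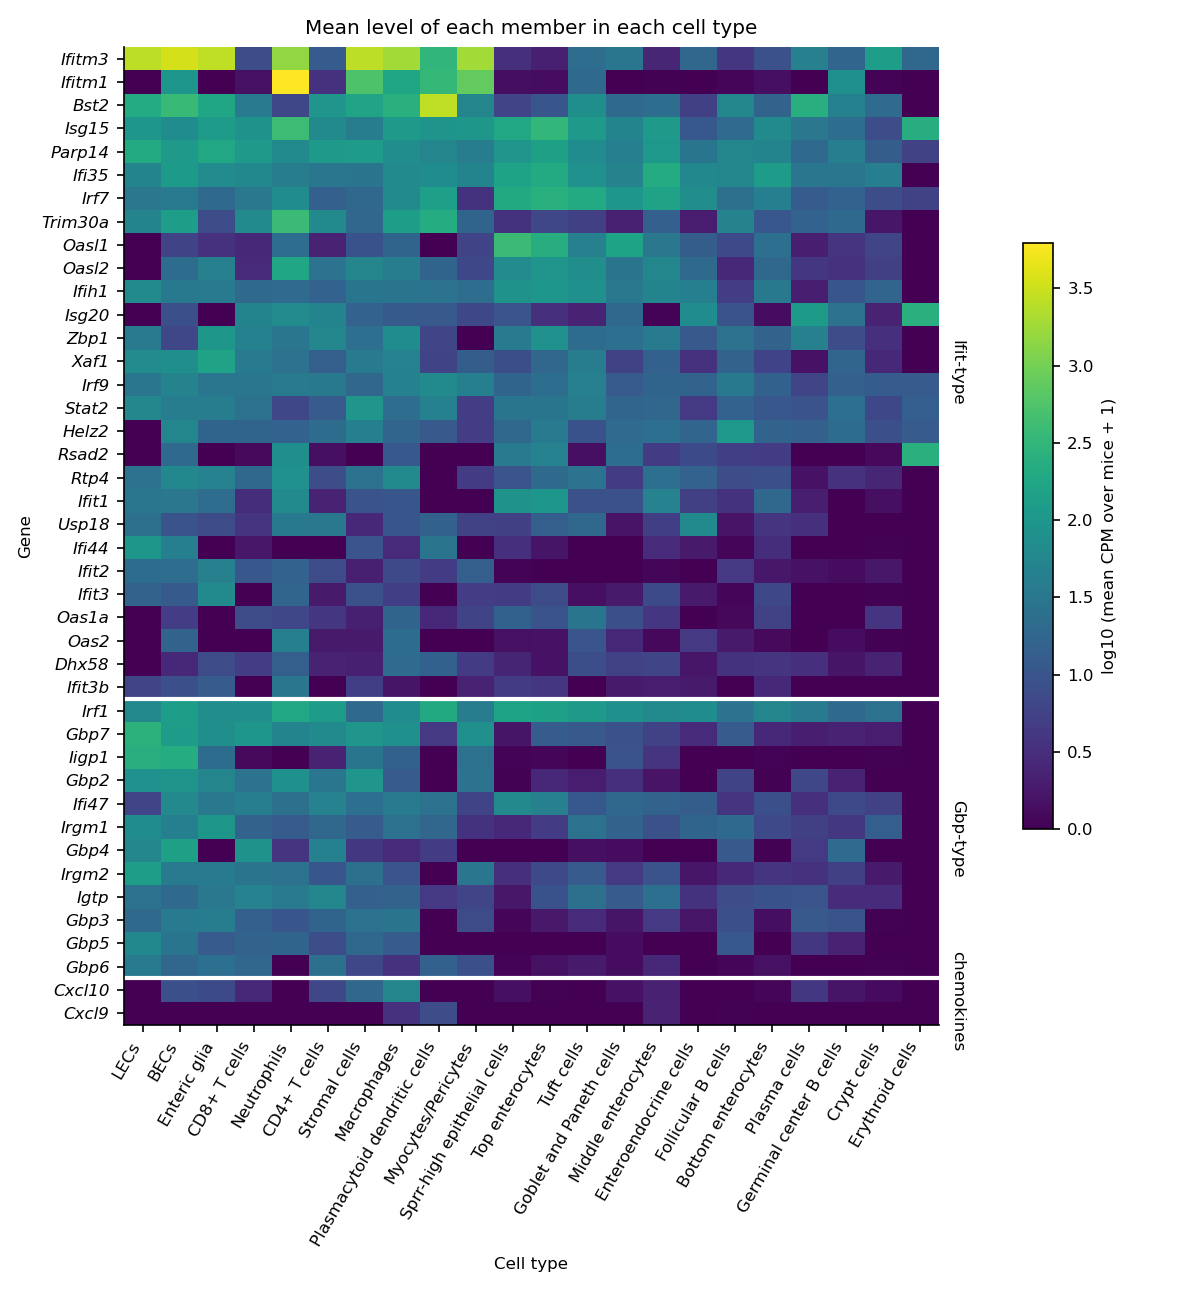
Mean level of each of the 42 members (rows, grouped by list) in each cell type (columns), as log10 of the mean CPM over mice plus 1. Iigp1 is high in BECs and LECs, and Gbp4 in BECs. Gbp2 is high in BECs, but its highest mean is in stromal cells. Isg15, Irf7 and Oasl1 are high in top enterocytes at 327, 255 and 227 CPM.

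CD8+ T cells combined high Gbp-type levels with low Ifitm and Bst2 levels. Of the 31 members, 15 were higher and 3 lower (27.5% and 18.4% of all genes), and the 15 included 8 of the 11 Gbp-type genes. The cluster was led by Gzma and Trdc and so held gamma-delta T cells as well. Gbp7 had 90.9, 76.6, 123 and 106 CPM (log2 difference 3.00 ± 0.22, SE; adjusted p = 4.6e-14) and Gbp4 93.9, 96.5, 79.2 and 77.4 CPM. Parp14, an ADP-ribosyltransferase gene, was the highest Ifit-type member at 108 ± 10.5 CPM (0.89 ± 0.18, SE). Isg15 had 103, 119, 87.0 and 28.5 CPM (1.01 ± 0.35, SE; adjusted p = 0.0177), a call that was lost without Control 2 (adjusted p = 0.244) and without EC-Foxc-DKO 1 (adjusted p = 0.177). Irf1 was at 78.1 ± 20.2 CPM (0.52 ± 0.24, SE; adjusted p = 0.0775). Iigp1 had 1 UMI. Ifitm3 and Bst2 were lower at 6.97 and 37.5 CPM.

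Macrophages had 20 of 31 members higher and none lower (29.9% and 11.8% of all genes), namely 13 Ifit-type genes, 6 Gbp-type genes and Cxcl10. The median log2 difference was 1.36 against 0.09 for all genes. Ifitm3 had 1866 ± 611 CPM (4.64 ± 0.28, SE), Bst2 255 ± 62.3 CPM (1.77 ± 0.17, SE), Trim30a 134 ± 34.5 CPM (3.03 ± 0.20, SE) and Ifitm1 120, 14.4, 273 and 264 CPM. Gbp7 had 78.3 ± 32.6 CPM (2.68 ± 0.21, SE). Control 1 and Control 2 stood far apart for several genes. Isg15 had 226, 40.3, 51.5 and 124 CPM and Irf7 125, 20.2, 43.2 and 62.9 CPM, highest in Control 1, whereas Irf1 had 22.1, 158, 74.2 and 19.9 CPM, highest in Control 2. Without Control 1 the call for Isg15 was lost (adjusted p = 0.0556). Cxcl10, which recruits CXCR3-bearing T cells, had its highest level here, with 39.8, 112, 53.8 and 3.07 CPM from 148 UMIs. Cxcl9, which binds the same receptor, had 13 UMIs in macrophages, all in EC-Foxc-DKO 1. Epithelial markers in macrophages were 776, 262, 3964 and 580 CPM and stress genes 4743, 8973, 4744 and 2392 CPM, and their part was not tested.

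Enteric glia, the cells that support gut neurons, had 14 members higher and 1 lower (19.8% and 11.2% of all genes), 7 of the 14 being Gbp-type. Ifitm3 had 2745 ± 1388 CPM (4.70 ± 0.29, SE) and Parp14 188 ± 58.0 CPM (1.57 ± 0.21, SE). Bst2 at 171 ± 53.0 CPM did not pass the test (0.63 ± 0.25, SE; adjusted p = 0.0549). Isg15 was at 180, 80.2, 86.1 and 153 CPM. Irgm1, a regulatory GTPase of vacuole-directed immunity, had 12.03, 70.2, 43.0 and 276 CPM, and so EC-Foxc-DKO 2 set much of its mean. Follicular B cells had 6 members higher and 5 lower (27.2% and 17.1% of all genes). Helz2, a helicase that acts as a nuclear receptor coactivator, was the highest Ifit-type member there at 155, 126, 52.3 and 78.6 CPM (2.36 ± 0.24, SE; adjusted p = 4.5e-10). Ifi35 and Bst2 at 54.9 and 54.6 CPM, and Irf1, Irgm1 and Gbp7 at 26.9, 18.7 and 11.2 CPM, did not pass. Plasma cells had 3 members higher and 3 lower (11.7% and 4.55% of all genes). The 3 were Bst2 at 263, 328, 190 and 218 CPM (2.81 ± 0.20, SE; adjusted p = 9.3e-14), the exonuclease gene Isg20 at 69.2, 169, 92.6 and 140 CPM, and Zbp1 at 44.1 ± 25.7 CPM. Among Gbp-type genes, Irf1, Gbp3 and Igtp in plasma cells had 33.9, 10.4 and 9.13 CPM and did not pass. DESeq2's size factors in place of TMM factors moved the median log2 difference of all genes by 0.20 in BECs, 0.26 in glia, -0.18 in follicular B cells and -0.12 in macrophages.

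In the epithelium the summed Ifit-type levels without Ifitm1, Ifitm3 and Bst2 were higher at each step from crypt to villus tip. The reduced Ifit-type sum averaged 131, 473, 933 and 1740 CPM in crypt cells and in bottom, middle and top enterocytes, and it was higher at every step in 4 of 4 mice. The sum of all 28 Ifit-type genes was higher at every step in 3 of 4 mice, and in EC-Foxc-DKO 2 it was 623 CPM in bottom and 604 CPM in middle enterocytes. Isg15 averaged 6.87, 61.4, 111 and 327 CPM and Irf7 6.94, 42.5, 153 and 255 CPM over these types. Irf7 was higher at every step in 4 of 4 mice and Isg15 in 3 of 4. Oasl1, a 2′-5′ oligoadenylate synthetase-like gene named after its values were seen, averaged 5.12, 23.7, 30.6 and 227 CPM, and was higher still in Sprr-high epithelial cells at 382 ± 102 CPM. Ifitm3 ran the other way at 132, 7.60, 1.54 and 1.14 CPM. Irf1 averaged 25.9, 53.3, 65.2 and 140 CPM. The Gbp-type sum also had means that were higher at each step, at 47.1, 80.5, 132 and 216 CPM. It was higher at every step in 2 of 4 mice, and higher in top enterocytes than in crypt cells in 4 of 4. Without Irf1 its means were 21.2, 27.3, 67.2 and 76.0 CPM, with top above crypt in 3 of 4 mice. Gbp2 had 2 UMIs in bottom enterocytes and none in crypt cells, and Gbp5 had none in any of the 4 types. The mean was higher at every step for 15 of 28 Ifit-type and 4 of 12 Gbp-type genes, against 9.82% of the 10866 genes with a mean of at least 1 CPM. In single mice this was less common, since 1 Ifit-type and no Gbp-type gene was higher at every step in all 4 mice, and 7 and 1 in at least 3. Top enterocytes were above crypt cells in all 4 mice for 25% of Ifit-type and 8.33% of Gbp-type genes, against 12.3% of the same 10866 genes. The limit of 1 CPM was not set on the members, and several of them, such as Gbp4, Gbp5 and Gbp6, lay below it. The member counts and shares are therefore not like for like with those of the 10866 genes. The top enterocytes of Control 2 and EC-Foxc-DKO 2 were 4 and 3 cells, and the middle enterocytes of EC-Foxc-DKO 2 were 4, so no test was made.

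**Figure D3:**
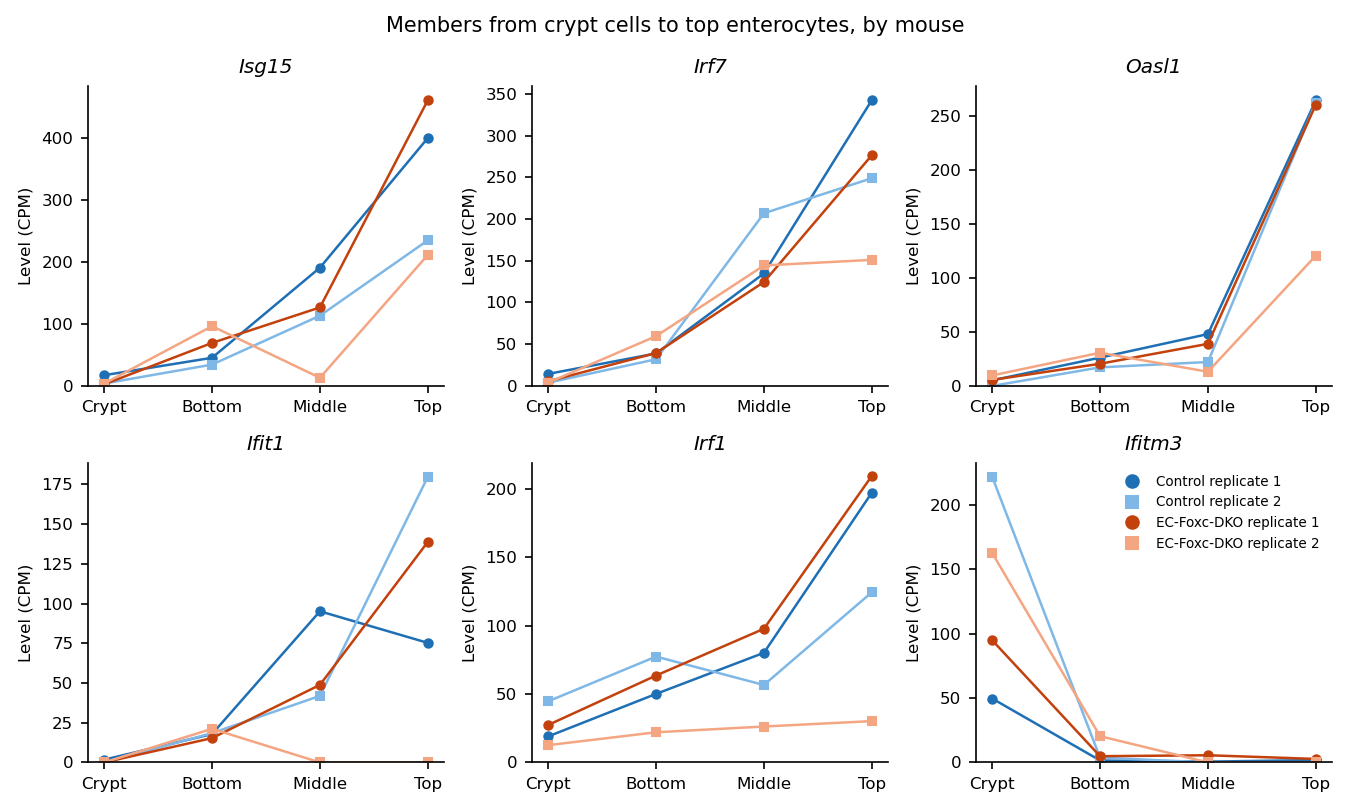
CPM in crypt cells and in bottom, middle and top enterocytes (x axes) of each mouse (1 line per mouse), for 6 members. Isg15, Irf7 and Oasl1 reach means of 327, 255 and 227 CPM in top enterocytes, and Ifitm3 is highest in crypt cells at 132 CPM.

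The fit over the tested types held crypt cells and bottom enterocytes but no middle or top enterocytes. It set each mostly against cells outside the epithelium and so did not test the steps from crypt to villus tip. In crypt cells 0 members were higher and 23 of 31 lower, against 33% and 27.6% of all genes, and the members' median log2 difference was -2.93 against -0.08. Isg15 had 17.3, 3.89, 2.59 and 3.73 CPM (-3.70 ± 0.46, SE; adjusted p = 1.25e-08) and Irf7 14.4, 3.89, 5.55 and 3.89 CPM (-2.60 ± 0.39, SE). Irf1, Irgm1 and Ifi47 were also lower at 25.9, 12.5 and 4.59 CPM. In bottom enterocytes 6 members were higher and 10 lower (32.5% and 34.2% of all genes), and the 6 were Ifit-type. Ifi35 had 126, 127, 119 and 131 CPM (1.44 ± 0.17, SE; adjusted p = 2.3e-09), Irf7 38.9, 32.0, 39.4 and 59.6 CPM (1.22 ± 0.27, SE), and Ifit1 17.8, 18.4, 15.3 and 21.1 CPM (2.33 ± 0.36, SE). Isg15, Oasl2 and Ifih1, an RNA sensor gene, completed the 6 at 61.4, 17.6 and 32.8 CPM. Of the Gbp-type genes none was higher and 4 were lower there, and Irf1 at 53.3 ± 23.6 CPM differed little from the other types (0.26 ± 0.20, SE; adjusted p = 0.252).

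Genes that carry the signal to these targets were counted in the same fit. Of 46 pathway genes fixed beside the members, 22 had enough counts. In BECs 6 were higher and 3 lower, shares near the 25.9% and 17.8% of all genes. In macrophages 12 were higher and 1 lower (29.9% and 11.8% of all genes), and in crypt cells 1 and 13 (33% and 27.6%). Ifnar2 had 177 CPM in BECs, 185 in glia and 166 in macrophages, but 20.9 in bottom enterocytes and 9.58 in crypt cells. Ifngr1 was at 183 CPM in BECs (0.65 ± 0.24, SE; adjusted p = 0.0289) and 270 CPM in CD8+ T cells. Ifngr2, the chain that brings in JAK2, was highest among the tested types in bottom enterocytes at 165 CPM (2.41 ± 0.15, SE; adjusted p = 3.6e-16) and was 24.8 CPM in BECs and 4.47 CPM in CD8+ T cells, lower in both. Socs1, a feedback inhibitor, was highest in CD8+ T cells among the tested types, at 62.3 CPM (3.01 ± 0.31, SE). Socs3 was at 752 CPM in glia and 287 CPM in BECs, and the adaptor gene Tmem173 (STING) at 70.1 CPM in BECs and 0.105 CPM in bottom enterocytes. Of 20 interferon genes, 14 of them encoding interferon alpha, UMIs were found for Ifng (159) and Ifnk (3). Ifnb1 had 0 UMIs.

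The main question of the study design was what endothelial loss of Foxc1 and Foxc2 changed. Between EC-Foxc-DKO and Control mice, no member passed the test in any of the 8 types (edgeR quasi-likelihood test, Benjamini-Hochberg adjustment over all genes of a type), which does not show that the levels were equal. At 0.05, 0% of all genes passed in 7 types, and 0.0884% (1 gene) in plasma cells. The filter on low counts left 39 members tested in at least 1 type, and 118 of 336 pairs of member and type. Ifit2, Gbp6 and Cxcl9 were tested in none. This filter asked for enough counts in only as many mice as a genotype holds. A member could thus enter a test through the genotype where it was high. The small p-values, directions and non-overlapping groups of members below carry that selection, and the same filter applied to all genes. The tested members numbered 15 in BECs, 29 in bottom enterocytes, 17 in CD8+ T cells, 14 in crypt cells, 5 in glia, 5 in follicular B cells, 31 in macrophages and 2 in plasma cells. At an unadjusted p under 0.05, 2 members stood in BECs, 8 in bottom enterocytes, 1 in CD8+ T cells, 2 in crypt cells, 1 in glia, 1 in follicular B cells, 2 in macrophages and 1 in plasma cells. All genes passed that limit at 2.78%, 3.13%, 2.2%, 2.47%, 2.31%, 1.99%, 2.43% and 5.57% in these types. DESeq2 called 0 members. With 2 mice a group, the exact permutation test of any sum cannot fall below p = 0.333.

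In BECs, a cell type in which the Cdh5 promoter drives Cre, 2 of 15 tested members had an unadjusted p under 0.05, against 2.78% of all genes. Both were estimated higher in EC-Foxc-DKO mice. They were low in both Control mice and could have passed the filter through the EC-Foxc-DKO mice alone, so their direction is no separate result. Ifitm1 had 0, 22.3, 74.3 and 289 CPM (log2 fold change 3.50 ± 0.93, SE; unadjusted p = 0.00431, adjusted p = 0.999). Its adjusted p fell under 0.05 without the filter on low counts, with the replicate number as a block (adjusted p = 0.0101), without Control 1 and without EC-Foxc-DKO 1. Ifi47 had 26.9, 35.7, 97.5 and 85.0 CPM (1.52 ± 0.45, SE; unadjusted p = 0.00837, adjusted p = 0.999). Gbp2 was estimated lower (-0.58 ± 0.36, SE; unadjusted p = 0.139), and its EC-Foxc-DKO values did not overlap with those of Control mice. Ifit1, with too few UMIs for the test, had 6.72 and 8.92 CPM in Control and 48.8 and 59.5 CPM in EC-Foxc-DKO mice. In all, 3 tested members lay higher and 2 lower in both EC-Foxc-DKO mice than in both Control mice, against 15.5% and 14.6% of all genes. Among the members that passed the filter, the estimate was above 0 for 8 of 9 Ifit-type genes (median log2 fold change 0.22) and for 1 of 6 Gbp-type genes (median -0.32), against 1750 of all 3487 genes (median 0.00). None of these members passed the test. The Gbp-type sum was 854 and 1181 CPM in Control and 998 and 765 CPM in EC-Foxc-DKO mice, and the groups overlapped. The Ifit-type sum overlapped as well. The reduced Ifit-type sum did not, at 907 and 918 CPM in Control and 1087 and 994 CPM in EC-Foxc-DKO mice. Over the 8 tested types this reduced sum was higher in both EC-Foxc-DKO mice in 3, lower in 3 and overlapped in 2. No sum was tested. The leukocyte markers given for BECs above overlapped between genotypes, and stress genes stood at 1277, 2635, 1888 and 5268 CPM in the same cells. Their part in these estimates was not tested.

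Bottom enterocytes held the longest run of small p-values. Of 29 tested members, 8 had an unadjusted p under 0.05, against 3.13% of all genes, and their adjusted p was 0.995. All 8 were Ifit-type, but so were 24 of the 29 tested members, with only 5 Gbp-type, so this does not set the lists apart. Of the 8, 7 were estimated higher and Ifit3b lower in EC-Foxc-DKO mice. Isg15 had 45.4, 34.4, 69.4 and 96.5 CPM (1.05 ± 0.28, SE; unadjusted p = 0.00529), and the groups did not overlap. Usp18, a protease that removes ISG15 from proteins, had 0.591, 1.23, 2.52 and 6.94 CPM (2.88 ± 0.80, SE). Ifitm3 had 1.54, 3.69, 4.82 and 20.4 CPM (2.83 ± 0.82, SE). The other 4 that were estimated higher were Ifit3, Ifi44, Rsad2 and Zbp1. EC-Foxc-DKO 2 gave the highest value of Isg15, Usp18 and Ifitm3. Usp18, Ifi44 and Rsad2 were low, at no more than 6.94, 5.82 and 9.74 CPM in any mouse. The Ifit-type sum in bottom enterocytes was 450, 454, 458 and 623 CPM, and the reduced Ifit-type sum 436, 436, 436 and 583 CPM. In both sums EC-Foxc-DKO 1 lay close to both Control mice, and only EC-Foxc-DKO 2 lay well above them. Leukocyte markers were low in these cells, at 1.54, 0, 16.6 and 12.3 CPM, but both EC-Foxc-DKO mice lay above both Control mice, and their part was not tested. In all, 9 members lay higher and 2 lower in both EC-Foxc-DKO mice (16.7% and 16% of all genes). Without EC-Foxc-DKO 1 the adjusted p was under 0.05 for 9 members, 8 of them higher, and for 1155 genes in all.

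**Figure D4:**
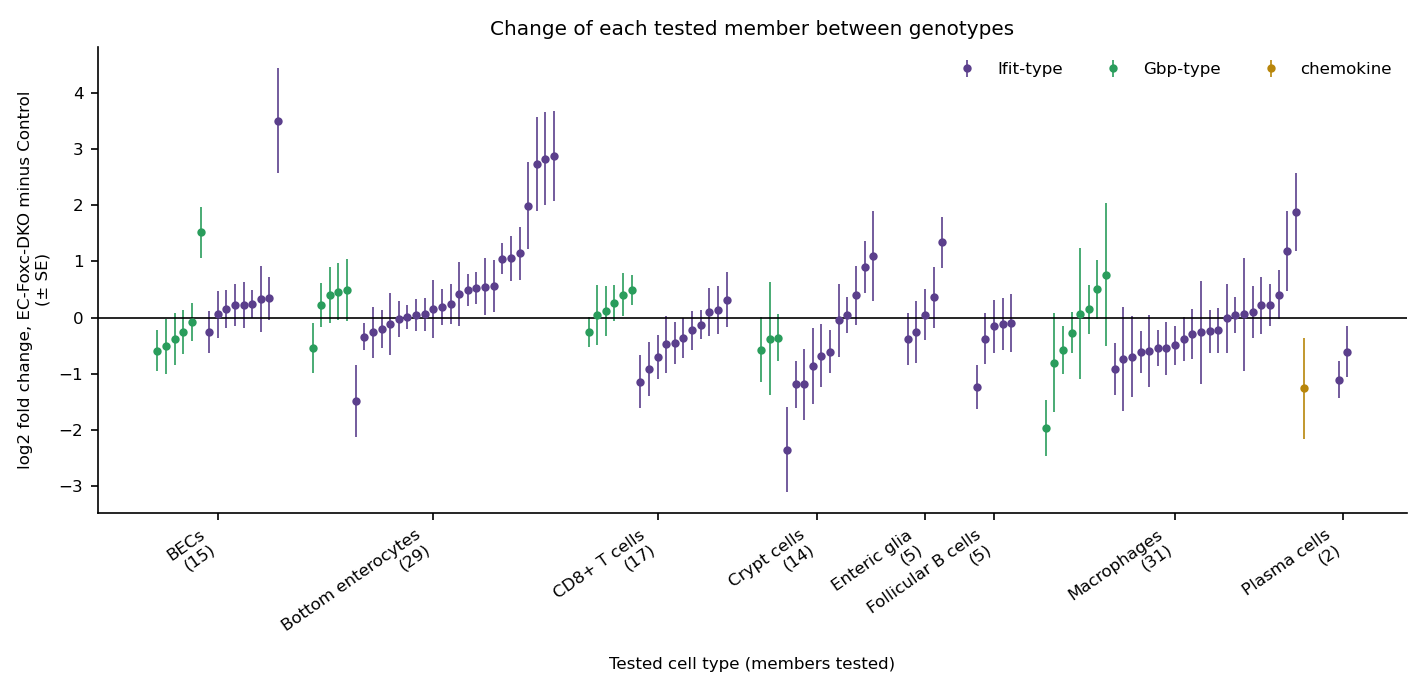
Log2 fold change (EC-Foxc-DKO minus Control) with its SE for every tested member in the 8 tested cell types, colored by list. No member passed an adjusted p of 0.05, and in bottom enterocytes 22 of 29 estimates lie above 0, against 4881 of all 9639 genes.

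In the other 6 types the members with an unadjusted p under 0.05 were estimated lower in EC-Foxc-DKO mice, except Xaf1 in glia and Ifitm1 in macrophages. Estimates above 0 numbered 8 of 17 tested members in CD8+ T cells, 4 of 14 in crypt cells and 3 of 5 in glia. They numbered 0 of 5 in follicular B cells, 12 of 31 in macrophages and 0 of 2 in plasma cells. Among all genes they numbered 2401 of 4815, 4589 of 9276, 804 of 1644, 1657 of 3413, 3526 of 6964 and 599 of 1131. In CD8+ T cells Irf7 had 51.5, 42.6, 25.4 and 8.15 CPM (-1.14 ± 0.47, SE; unadjusted p = 0.0354), and Gbp7 and Isg20 were estimated at 0.50 and -0.91. In all, 1 tested member lay higher and 6 lower in both EC-Foxc-DKO mice (14.6% and 16% of all genes). Without EC-Foxc-DKO 1, Isg15 in CD8+ T cells passed at a log2 fold change of -1.94. In macrophages Gbp3 had 29.8, 60.5, 11.4 and 10.7 CPM (-1.96 ± 0.50, SE; unadjusted p = 0.00482), Ifitm1 was estimated higher (1.87 ± 0.70, SE; unadjusted p = 0.0283), and Stat2 lower (-0.91 ± 0.46, SE). There 3 members lay higher and 8 lower (16.6% and 13.7% of all genes), and Cxcl10 passed without EC-Foxc-DKO 1 at -4.49. In follicular B cells 0 members lay higher and 3 lower (10.8% and 18.6% of all genes), and Helz2 had 155 and 126 CPM in Control and 52.3 and 78.6 CPM in EC-Foxc-DKO mice (-1.23 ± 0.39, SE; unadjusted p = 0.00346). In glia 1 member lay higher and 0 lower (14.1% and 12.3% of all genes). This was Xaf1, a proapoptotic factor gene, with 84.2, 80.2, 177 and 276 CPM (1.34 ± 0.45, SE; unadjusted p = 0.0150). In crypt cells 2 members lay higher and 4 lower (13.4% and 15.6% of all genes). Oasl2 there had 4.61, 9.72, 1.11 and 1.30 CPM (-2.34 ± 0.75, SE; unadjusted p = 0.0166), and Parp14 was at -1.19 ± 0.41 (SE). Leukocyte markers in crypt cells were 0, 3.89, 14.8 and 22.2 CPM, higher in both EC-Foxc-DKO mice, and their part was not tested. In plasma cells 0 members lay higher and 1 lower (49.7% and 3.45% of all genes). This was Bst2, at -1.10 ± 0.33 (SE; unadjusted p = 0.0159, adjusted p = 0.759). Its means were 295 CPM in Control and 204 CPM in EC-Foxc-DKO mice, before the TMM scaling used for the estimate. Leukocyte markers in plasma cells were 1571, 1561, 3833 and 6175 CPM, higher in both EC-Foxc-DKO mice, as were 49.7% of all genes. Plasma cells are leukocytes themselves, so these markers do not set RNA from other cells apart, and their part was not tested.

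Whether BECs changed differently from the other types was tested as an interaction. For 8 of the 31 members, Isg20, Ifit1, Ifitm1, Gbp2, Gbp4, Gbp5, Iigp1 and Cxcl10, and for 1767 of 8703 genes, the fit gave no usable standard error, so that no call was possible. These 8 members had no UMI in either mouse of a genotype in 2 to 7 combinations of type and genotype. None of the other 23 members, and none of the other 6936 genes, passed by edgeR, DESeq2 called no member, and 0 of these members and 272 of all genes had an unadjusted p under 0.05. LECs, which also carry the Cre, held 3 cells from EC-Foxc-DKO mice, and their Gbp-type sum was 1193 and 1083 CPM in Control 1 and 2 and 917 CPM in EC-Foxc-DKO 1.

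Among the pathway genes edgeR called none between genotypes. An unadjusted p under 0.05 was found for 1 of 15 tested pathway genes in CD8+ T cells. In follicular B cells it was found for 1 of 13 and in macrophages for 2 of 22. All genes passed that limit at 2.2%, 1.99% and 2.43% in these types. DESeq2 called 1 pathway gene. This was Ifng in CD8+ T cells. It had 245, 90.8, 20.5 and 16.3 CPM, so both EC-Foxc-DKO mice lay below both Control mice (log2 fold change -3.07 ± 0.49, SE; unadjusted p = 8.7e-05, edgeR adjusted p = 0.419). DESeq2 gave an adjusted p of 0.00218. The counts were 81, 32, 21 and 4 UMIs, and 65 of the 81 UMIs in Control 1 came from 1 cell. Over the alternatives the adjusted p ran from 4.50e-14 without Control 2 to 0.999 with likely doublets removed, where the log2 fold change was -1.83. In the same cells the Gbp-type sum was 479, 468, 544 and 379 CPM, and the genotypes overlapped.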

How the data were processed

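The authors deposited raw UMI counts per gene and barcode from 10x Genomics 3′ libraries, made with Cell Ranger on mm10 with a Cre sequence added; the submitters' processing notes name version 4.0.0, and the methods another. Barcodes with over 10% of UMIs from the 13 mitochondrial genes were left out. This share was taken over the UMIs of the 18407 genes in the authors' processed data of the series. Taken over all 32286 features, the same limit would have kept 5876 barcodes. Clustering used scanpy 1.11.5 with leidenalg 0.10.2 (15 principal components, 15 neighbors, resolution 0.5), with the 20 members among the variable genes left out. Names came from marker genes, under thresholds set after the clusters were seen. No conventional dendritic cell cluster met them. The neutrophils carry the marker genes of the study's first macrophage cluster. Likely doublets were kept, and their removal was an alternative.

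For each cell type the UMIs of a mouse were added up, so each mouse is 1 replicate. Genotypes were compared by the quasi-likelihood test of edgeR 4.0.16 in R 4.3.3 after filterByExpr and TMM scaling, with Benjamini-Hochberg adjustment and a threshold of 0.05. The study's own single-cell test takes cells as replicates and was not used. DESeq2 1.42.0 was an alternative. Other alternatives were DESeq2's size factors, no filter on low counts, the replicate number as a block, each mouse left out, a mitochondrial limit of 20%, a clustering resolution of 1, members kept for clustering and doublets removed. Tests were checked on simulated data. Counting error only is covered by the UMI totals.

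The members and lists were chosen with earlier results of these data known. Named with values were Isg15, Ifit1, Ifit3, Irf7, Gbp2, Iigp1, Irf1, Cxcl9 and Cxcl10, any member called between genotypes, and in each tested type the 3 highest Ifit-type and Gbp-type members and the 3 with the lowest p. A further pathway gene of that rule is not reported here. Further genes, such as Gbp7 in endothelium, Oasl1, Zbp1 in BECs, Igtp, Trim30a in macrophages, Oasl2 and Ifih1 in bottom enterocytes and the pathway genes given, were picked after their values were seen. Promoter motifs were searched with Python 3.11.15, and figures drawn with matplotlib 3.10.9.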

Additional observations from a re-analysis of the deposited data

How the results depend on the processing

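Of 803 values of single members recomputed under an alternative, 756 kept their direction and their side of the threshold, and 294 of 374 counts of calls stayed within 1.5 times. Signs turned for Parp14 in glia without Control 2 (0.041; range over left-out mice -0.93 to 0.041), for Ifitm3 in glia without Control 2 (-0.24) and without EC-Foxc-DKO 2 (-0.18; range -0.24 to 1.37), and for Trim30a in follicular B cells with DESeq2 (0.11). Without the filter on low counts, 1 member was called between genotypes in BECs, 5 in bottom enterocytes and 2 in macrophages, among all genes 57 in BECs, 155 in bottom enterocytes, 29 in CD8+ T cells, 99 in crypt cells, 50 in glia, 4 in follicular B cells, 105 in macrophages, 39 in plasma cells and 4 in the interaction, and the level counts became 14 higher in bottom enterocytes and 2, 9 and 5 lower in glia, follicular B cells and plasma cells. DESeq2 called 2, 5, 1 and 4 genes in BECs, bottom enterocytes, CD8+ T cells and crypt cells. With doublets removed 8 genes were called in BECs. A mitochondrial limit of 20% gave 8 genes in plasma cells and level counts of 11 higher in bottom enterocytes, 9 lower in follicular B cells, and 6 higher and 11 lower in plasma cells. In follicular B cells 11 members were lower with DESeq2's size factors and 8 with members kept for clustering. For these level counts of members, the share of all genes under the same setting is not given here. They therefore do not show whether the members or the whole fit changed. The causes were not tested.

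The labels do not say whether the replicate numbers pair mice, and the main tests did not pair them. Same-numbered mice did not deviate together over genes (correlations of deviations from -0.33 in crypt cells to 0.01 in follicular B cells). Each correlation rests on only the difference between the mice of each genotype, so it cannot decide whether the numbers pair mice. With the replicate number as a block, 1 member (Ifitm1) and 6 genes were called in BECs, 3 genes in bottom enterocytes, 1 in CD8+ T cells, 1 in follicular B cells and 0 in plasma cells, and no member in the other 7 types.

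Leaving out 1 mouse at a time gave 0 to 1 members called between genotypes in BECs, 0 to 9 in bottom enterocytes, 0 to 1 in CD8+ T cells and 0 to 1 in macrophages. Among all genes the ranges were 12 to 32 in BECs, 0 to 1155 in bottom enterocytes, 12 to 68 in CD8+ T cells, 3 to 34 in crypt cells, 0 to 48 in glia, 0 to 17 in follicular B cells, 0 to 56 in macrophages, 0 to 78 in plasma cells and 0 to 2 in the interaction. The member levels gave 5 to 10 higher and 5 to 9 lower in bottom enterocytes, 0 to 1 lower in glia, 3 to 6 higher and 1 to 8 lower in follicular B cells, 0 to 1 lower in macrophages and 0 to 2 lower in plasma cells. The shares of all genes beside these level counts are not given here, so a change of the whole fit cannot be told apart. A lone mouse in a group was assumed to vary like the others.

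With 2 mice a group and as few as 11 cells a mouse in a tested type, genotype differences, large ones included, could go undetected, and an absent call is no sign of equal levels. Types with under 10 cells in any mouse, LECs among them, were not tested. Where such a type had cells from every mouse, its sums were set side by genotype. The Ifit-type sum was higher in both EC-Foxc-DKO mice in 1 type, lower in 4 and overlapped in 7. For the Gbp-type sum these numbers were 1, 2 and 9. How often all genes separated by genotype in these types was not counted. Some rested on few cells, such as 2 myocytes/pericytes and 4 middle enterocytes in EC-Foxc-DKO 2 and 3 Sprr-high epithelial cells in Control 2. No genotype shift is therefore read from these numbers. Control 2 kept the fewest barcodes under the mitochondrial limit.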

Other observations

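Several members peaked in cell types outside the tests. Bst2 reached 2736 ± 1149 CPM in plasmacytoid dendritic cells, the main producers of type I interferon, against 366 CPM in the next type, and the ranges did not overlap. Ifitm1 reached 6256 ± 3864 CPM in neutrophils (n = 3), above myocytes/pericytes at 766 ± 353 CPM without overlap. Isg20 had its highest mean in erythroid cells at 252 CPM, from 27 UMIs in 16, 3, 11 and 4 cells. Igtp was highest in CD4+ T cells at 55.1 ± 32.6 CPM. The type with the highest mean was neutrophils for 7 Ifit-type genes, glia for 4 and top enterocytes for 3, whereas LECs led for 5 Gbp-type genes and BECs and glia for 2 each. How often each type leads among all genes was not counted. Neutrophils and LECs numbered 56 and 18 cells, so these counts do not set a type apart. Neutrophils of Control 1 also held 12521 CPM of epithelial markers and 40015 CPM of hemoglobin transcripts, and the part of these in the levels was not tested. All these genes were picked after their values were seen, and none of these levels was tested.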
